A study of Caenorhabditis elegans with 11 samples.

Results

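This account concerns 127 genes of Caenorhabditis elegans that carried only a sequence name in the deposited tables, such as ZK1225.7. They were listed as higher after knockdown of a splicing factor in larvae without nonsense-mediated mRNA decay and were not listed as higher in wild-type larvae. They were chosen from the 346 genes of the submitters' higher table for smg-1(r861) larvae: of the 200 with no public name, 73 were also in the higher table of N2 and were left out. The 6 tables of the series hold 1106 entries in all. The values that chose the members are those of the smg-1 libraries, so their folds are given as a description and no difference is tested.

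Nonsense-mediated decay is a surveillance pathway that destroys mRNAs whose reading frame ends too early, and SMG-1 is the kinase that the pathway needs to act. Retained introns, misplaced splice junctions and many pseudogene transcripts carry such early stops, so RNAs of these kinds can be seen in smg mutants and be scarce in wild type. PRP-6, PRP-8 and PRP-31 are proteins of the U4/U6.U5 tri-snRNP, the particle that brings the catalytic RNAs to the spliceosome.

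Whole worms were used. The smg-1(r861) larvae (strain TR1331) were fed for 24 h at 20 °C with bacteria that make double-stranded RNA of prp-6, of prp-8, of prp-31 or, as the control, of gfp (a jellyfish gene with no counterpart in these worms), starting as synchronized L1 and labelled as L3, with 1 library of each. N2 larvae, the wild type, had the same 4 treatments. Adults of glp-4(bn2) (strain SS104), 5 days old and kept at 25 °C, had 72 h on OP50 bacteria and 48 h on the clones of prp-8, prp-31 or gfp. Their titles name L3, but the stage given for them and the study's design are adult. No group had a second library, so no value below has a replicate error. The temperature-sensitive glp-4(bn2) allele stops germ cells from proliferating at the higher temperature. RNA was enriched for poly(A) and sequenced as paired reads of 73 bp. The labels give a minimum depth only, so no counting interval can be attached to a value. Values are the authors' FPKM, fragment numbers corrected for transcript length and library size. A fold is the ratio of knockdown FPKM + 1 to gfp FPKM + 1, which understates the change of genes with low values. Knockdown libraries are given in the order prp-6, prp-8, prp-31.

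The membership rests on a threshold in each strain, not on a measured difference between strains. Every listed member has an unadjusted P of at most 0.01 in the authors' deposited table. The authors' P and q compare the pooled knockdowns with gfp, so neither refers to a single clone. FPKM in N2 is given only for genes of the N2 tables. A member's level in N2 is therefore not known here, and none of the 127 was in the N2 lower table either. The members nearest the threshold were Y17G7B.22, with a P of 0.01, and Y4C6B.2, with a P of 0.00995 in the authors' deposited table. Genes just beyond it have no values. A q below 0.05 in the authors' deposited table was given for 31 of the 127 members, a share of 24.4%, against 37.6% of the whole higher table.

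For 1 member, the pseudogene Y80D4G.1, an overlapping entry was higher in N2 as well. Its deposited interval on chromosome III, 7600558 to 7604093, shares 380 bases with that of T04A6.5, an entry of both larval higher tables that matched no gene in the annotation used here. In N2, T04A6.5 had 38.8, 67.9 and 17.1 FPKM in the knockdowns and 5.33 FPKM with gfp. In smg-1, T04A6.5 had 58.1, 104.7 and 29.6 FPKM in the knockdowns and 11.9 FPKM with gfp. In smg-1, Y80D4G.1 had 41.1, 71.2 and 16.4 FPKM in the knockdowns and 7.96 FPKM with gfp. Both entries were highest with prp-8 and above gfp with every clone.

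Most members were highest with prp-8 RNAi, as were most genes of the whole higher table. The RNA came from whole worms, in which more cells of a type and more RNA per cell cannot be told apart. The median fold of the 127 was 2.74 with prp-8, 1.75 with prp-6 and 1.31 with prp-31, which is 1.45, 0.81 and 0.39 on the log2 scale. Values at least 2-fold higher than with gfp were found in 99 members after prp-8 RNAi, in 38 after prp-6 RNAi and in 10 after prp-31 RNAi. Over the whole higher table the share was 85.3% for prp-8, 41% for prp-6 and 6.65% for prp-31, and nothing is read from the members' counts, since the table was selected on this contrast. The prp-8 library held the highest value of 108 of the 127 members (85.0%), against 308 of the 346 genes of the table (89.0%). In 93 the order was prp-8 above prp-6 above prp-31, a share of 73.2%, against 82.4% of the whole higher table. In every knockdown alike, 111 of the 127 members were above gfp, against 313 of the 346 genes of the table, and 5 were at least 2-fold higher, beside 4.62% of the table. Of these 5, 3 have a gfp value above 0: K07B1.8 and the pseudogenes ZK1225.7 and W05G11.2.

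**Figure D1:**
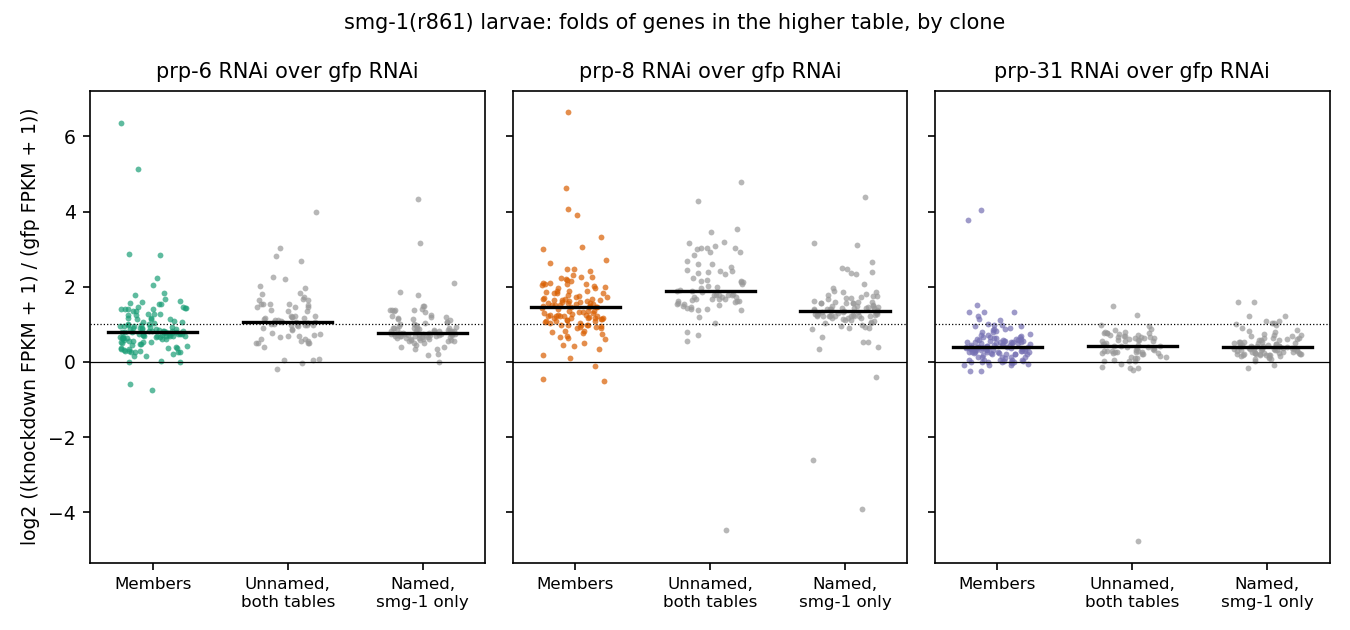
Log2 fold of each gene, FPKM + 1, for each knockdown over gfp in smg-1(r861) larvae (1 library per clone). Points are genes, bars are medians, and the dotted line marks 2-fold; genes listed at 0 with gfp are included. The members' medians are 0.81 (prp-6), 1.45 (prp-8) and 0.39 (prp-31), against 1.07, 1.88 and 0.43 for the 73 unnamed genes of both larval tables and 0.78, 1.36 and 0.40 for the 95 named genes of the smg-1 table alone.

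The plot of folds by clone sets the members beside the 73 unnamed genes of both larval higher tables. Those had median log2 folds of 1.88 (prp-8), 1.07 (prp-6) and 0.43 (prp-31). Genes that pass a threshold in both strains are a stricter selection, so the larger medians are a description only. The 95 genes with a public name that were in the smg-1 higher table and not in that of N2 had medians of 1.36, 0.78 and 0.40 in the same order, each within 0.1 of the members'. The gfp level of the members had a median of 4.85 FPKM and a range of 0 to 226 FPKM, against medians of 5.63 FPKM for the 73 unnamed genes and 9.51 FPKM for the 95 named genes.

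Pseudogenes made up 20 of the 127 members. Pseudogenes are gene copies whose reading frame has been broken, and RNAs with early stop codons are the substrate of nonsense-mediated decay. Ensembl release 115 and RefSeq, both on assembly WBcel235, gave the same class for each of the 126 members that matched: 101 protein-coding genes, 20 pseudogenes, 3 non-coding RNA genes and 2 snoRNA genes. K07B1.8 matched neither. Among genes with no public name, pseudogenes were 15.7% of the members, against 3 of 73 in both larval higher tables (4.11%), 1 of 168 in the N2 higher table alone (0.595%) and 2 of 76 in the smg-1 lower table (2.63%). In the whole annotation, named genes included, pseudogenes were 2128 of the 22113 protein-coding genes and pseudogenes (9.62%), against 20 of the 121 such members (16.5%). The rule did not use the class itself, but it kept only genes without a public name. How many annotated genes of each class lack a public name was not counted, so the selection itself may shift these shares. The shares were not tested. Among the 95 named genes of the smg-1 table alone, 2 were pseudogenes (2.11%).

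All 20 pseudogenes were highest with prp-8 RNAi, against 83 of the 101 protein-coding members and 89.0% of the whole higher table. Of the 20, 19 were at least 2-fold higher with prp-8, 8 with prp-6 and 2 with prp-31, and 19 were above gfp with every clone. The shares at least 2-fold higher were thus 95% with prp-8, 40% with prp-6 and 10% with prp-31, beside 85.3%, 41% and 6.65% of the table. Their median log2 folds were 0.95, 1.54 and 0.43, against 0.77, 1.34 and 0.39 for the protein-coding members. Median gfp levels were alike, 4.93 FPKM for pseudogenes and 5.00 FPKM for protein-coding members. Of the 20, 19 have more than 1 annotated exon, and W02A11.6 has 1.

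ZK1225.7 and W05G11.2 had the largest folds with prp-6 and with prp-8 among members with a gfp value above 0, whereas with prp-31 K07B1.8, at 2.86-fold, was above both. ZK1225.7 (chromosome I, 13224430 to 13225473) had 23.7, 50.3 and 7.67 FPKM in the knockdowns and 2.43 FPKM with gfp, folds of 7.2, 14.9 and 2.52. W05G11.2 (chromosome III, 57702 to 58698) had 20.4, 48.2 and 6.41 FPKM and 1.94 FPKM with gfp, folds of 7.26, 16.7 and 2.52. Both had the same order of clones and levels close to each other in every library, on different chromosomes. The genome build of these deposited coordinates is not stated. Whether these copies share reads was not tested, and values of pseudogenes are uncertain where a near-identical copy exists.

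F27D4.3 was more abundant, at 100.4, 135 and 47.4 FPKM in the knockdowns and 23.7 FPKM with gfp. F08B4.3 was the most abundant pseudogene, with 240, 266 and 139 FPKM in the knockdowns and 105.3 FPKM with gfp. All knockdown libraries were above gfp for both, and prp-31 was nearest to gfp. T07G12.8, whose annotated span overlaps the meiotic pairing gene zim-1 on the same strand, had 33.9, 62.1 and 16.9 FPKM and 9.13 FPKM with gfp. F55G11.3 stood apart by its prp-8 value alone, with 17, 58.3 and 13.8 FPKM and 10.2 FPKM with gfp. With prp-31 RNAi, 3 of the 20 (W02A11.6, Y52D5A.1 and B0238.13) were less than 1.1-fold above gfp or below it, and each of these had under 1 FPKM with gfp.

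**Figure D2:**
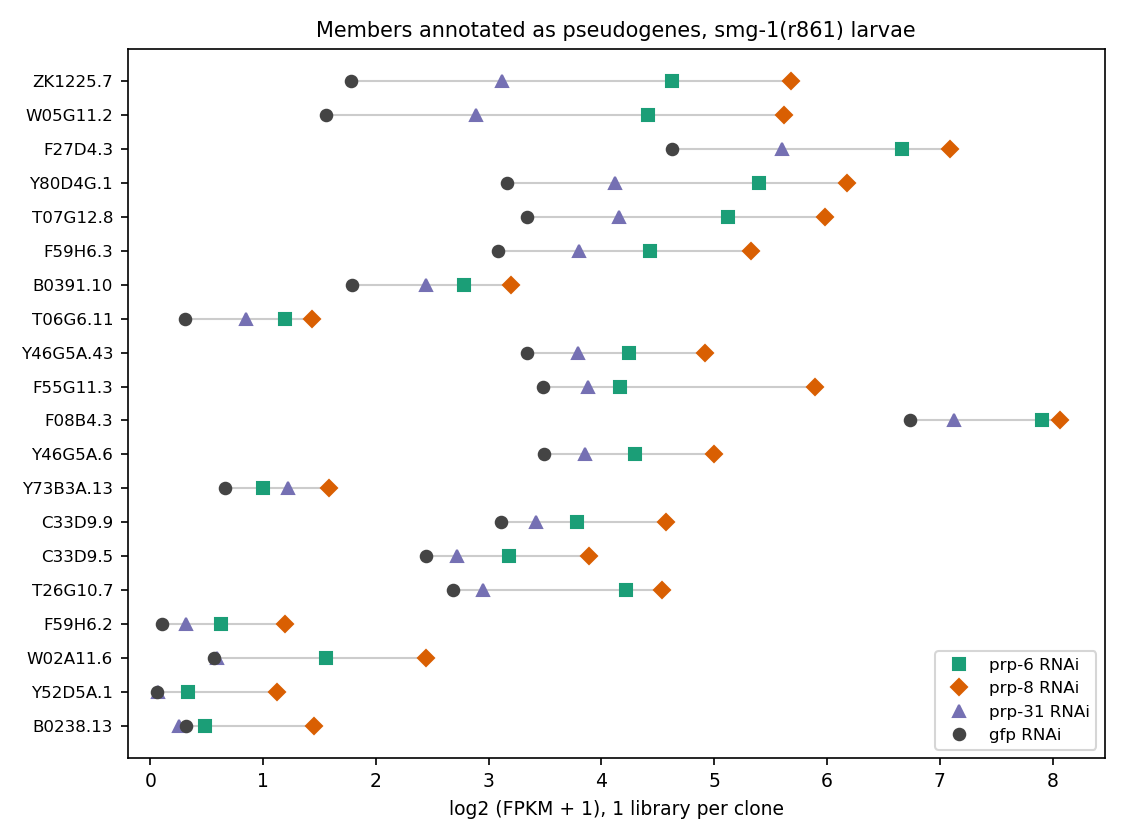
FPKM of the 20 members annotated as pseudogenes in the 4 smg-1(r861) libraries, as log2 (FPKM + 1), ordered by the smallest fold over the knockdowns. Each mark is 1 library; the prp-8 mark is the rightmost in all 20 rows, and the prp-31 mark lies left of the gfp mark only for B0238.13.

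The levels of pseudogenes are less certain than those of other members. The authors' deposited table also gives FPKM for the pooled knockdowns and for gfp. The mean of the 3 single knockdown libraries was a median of 0.848 times the pooled value, and the single gfp value 0.855 times its counterpart. Either ratio departed from its median by over 1.5-fold in 13 members, of which 8 were pseudogenes, among them ZK1225.7, F27D4.3, Y80D4G.1, F59H6.3 and T26G10.7. K07B1.8, which passed 2-fold with every clone (74.5, 114 and 77.3 FPKM, and 26.3 FPKM with gfp), was also among the 13, with 36.3 FPKM pooled over the knockdowns and 10.1 FPKM for gfp in the authors' deposited table. The protein-coding member Y37B11A.3, whose span overlaps the DNA polymerase gene rev-3 on the same strand, had the largest disagreement for gfp, with 27.8 FPKM in the single library and 4.02 FPKM in the authors' deposited table.

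Small RNAs gave the highest values among members listed at 0 with gfp. snoRNAs guide chemical modification of other RNAs and usually carry no poly(A) tail. Y53F4B.48 had 80.9, 99.3 and 15.4 FPKM in the knockdowns, and Y23H5B.10 had 34.0, 23.9 and 12.6 FPKM. Both are listed at 0 with gfp, so no fold is given. The 3 non-coding RNA genes, Y65B4BL.12, F37B12.11 and C56C10.15, are also listed at 0 with gfp and reached 3.06, 2.12 and 0.902 FPKM with prp-8. Altogether 11 members are listed at 0 with gfp, 6 of them protein-coding. In the same libraries the ribosomal RNA gene rrn-2.1 had 36295, 34627 and 12191 FPKM in the knockdowns and 4034 FPKM with gfp, and rrn-1.2 had 56.6, 58.6 and 7.59 FPKM and 1.86 FPKM with gfp. All 4 of these RNAs were higher with prp-6 and prp-8 than with prp-31, and lowest with gfp. How far differences in RNA without a poly(A) tail enter the members' values was not tested.

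Of the 127 members, 33 now have a gene name in RefSeq, and 23 of these fall into 5 groups that were put together after their values were seen. The largest, of 8, holds genes of pre-mRNA splicing and of the snRNA cap. All 8 were at least 2-fold higher with prp-8, 2 with prp-6 and none with prp-31, beside 85.3%, 41% and 6.65% of the whole higher table, and nothing is read from these counts. Their folds were 2.14 to 4.28 with prp-8, 1.69 to 2.76 with prp-6 and 1.2 to 1.97 with prp-31. All 8 were in the order prp-8 above prp-6 above prp-31, from gfp levels of 4.46 to 35.9 FPKM.

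F53H1.1 is ddx-46, a DEAD-box helicase related to yeast Prp5, which acts when the U2 snRNP joins the branch point. It had 42.5, 66.5 and 27.8 FPKM in the knockdowns and 14.8 FPKM with gfp. Y65B4A.1 is cus-2, whose yeast namesake binds U2 snRNA, and it had 28.5, 42.3 and 21 FPKM and 10.1 FPKM with gfp. Both genes were above gfp with every clone, with smallest folds of 1.97 for cus-2 and 1.82 for ddx-46, both with prp-31. T08A11.2 is sftb-1, the SF3B1 homologue of the U2 snRNP, with 32.0, 37.8 and 22.7 FPKM and 17.1 FPKM with gfp. M03F8.3 is syf-3, related to the yeast splicing factor Clf1, with 54.2, 71.5 and 38.9 FPKM and 31.6 FPKM with gfp. The group also holds rbm-39 (Y55F3AM.3, an SR-related RNA-binding protein) and mog-7 (F43G9.12). ddx-35 (Y67D2.6, a helicase) and tgs-1 (T08G11.4, which hypermethylates the cap of snRNAs) complete it. sftb-1, syf-3, rbm-39, mog-7, ddx-35 and tgs-1 had folds of 2.14 to 2.49 with prp-8. In the authors' deposited table cus-2 and ddx-46 had a q below 0.05 (0.00821 each), and the other 6 did not.

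ints-2 (ZC376.6) and ints-4 (W04A4.5) encode subunits of Integrator, the complex that cleaves the 3' ends of nascent snRNAs. ints-2 had 8.32, 10.6 and 7.38 FPKM in the knockdowns and 4.85 FPKM with gfp. ints-4 had 15.2, 19.8 and 11.4 FPKM and 7.86 FPKM with gfp. The folds with prp-8 were 1.98 and 2.35, and q in the authors' deposited table was 0.191 and 0.107. xpb-1 (Y66D12A.15), the XPB helicase of the transcription and repair factor TFIIH, had 25.7, 43.6 and 20.6 FPKM in the knockdowns and 16.3 FPKM with gfp.

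Of a list of 35 spliceosome genes, taken by their deposited names, 10 were in the smg-1 higher table and none in the lower table. These 10 have public names and are not members. Their median log2 folds were 1.18, 1.72 and 0.50, taken only over genes already listed as higher. The list also names ddx-46, which the deposited table gives only as F53H1.1. Of a list of 33 genes of mRNA decay and of transcripts studied as its targets, smgl-2 and uaf-2 were in the higher table and none was in the lower. The share of all genes listed as higher was not computed, and nothing is read from the counts of either list. uaf-2, the small subunit of U2AF, had 123, 143 and 86.5 FPKM in the knockdowns and 60.8 FPKM with gfp.

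The 5 pals genes among the members all had their highest value with prp-8 RNAi, as did 89.0% of the whole higher table. Genes of the pals family share a domain named after ALS2CR12, and many are known to be induced by infection with microsporidia or Orsay virus. The folds of the 5 with prp-8 were 2.33 to 4.76, all at least 2-fold. With prp-6, 1 of the 5 reached 2-fold, and with prp-31 none did. The shares of the whole higher table were 85.3%, 41% and 6.65% for prp-8, prp-6 and prp-31, and nothing is read from these counts. With a pseudocount of 0.1 FPKM, 2 of the 5 reached 2-fold with prp-6, pals-26 at 5.16-fold and pals-27 at 3.52-fold. pals-17 (Y82E9BR.13) had 8.70, 25.2 and 6.07 FPKM in the knockdowns and 4.51 FPKM with gfp. pals-6 (C17H1.7) had 1.76, 9.85 and 1.47 FPKM and 1.40 FPKM with gfp. For pals-6 the folds with prp-6 and prp-31 were thus 1.15 and 1.03. pals-26 (B0284.1) had a fold of 2.55 with prp-6 beside 3.18 with prp-8, at 2.66, 3.56 and 0.872 FPKM in the knockdowns and 0.435 FPKM with gfp. pals-27 (B0284.2) had 0.809, 1.70 and 0.162 FPKM in the knockdowns and 0.158 FPKM with gfp. pals-14 (F22G12.1) had 0.553, 3.48 and 0.397 FPKM and 0.267 FPKM with gfp. The values of these last 3 genes are low, and the counting error behind them is not known.

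**Figure D3:**
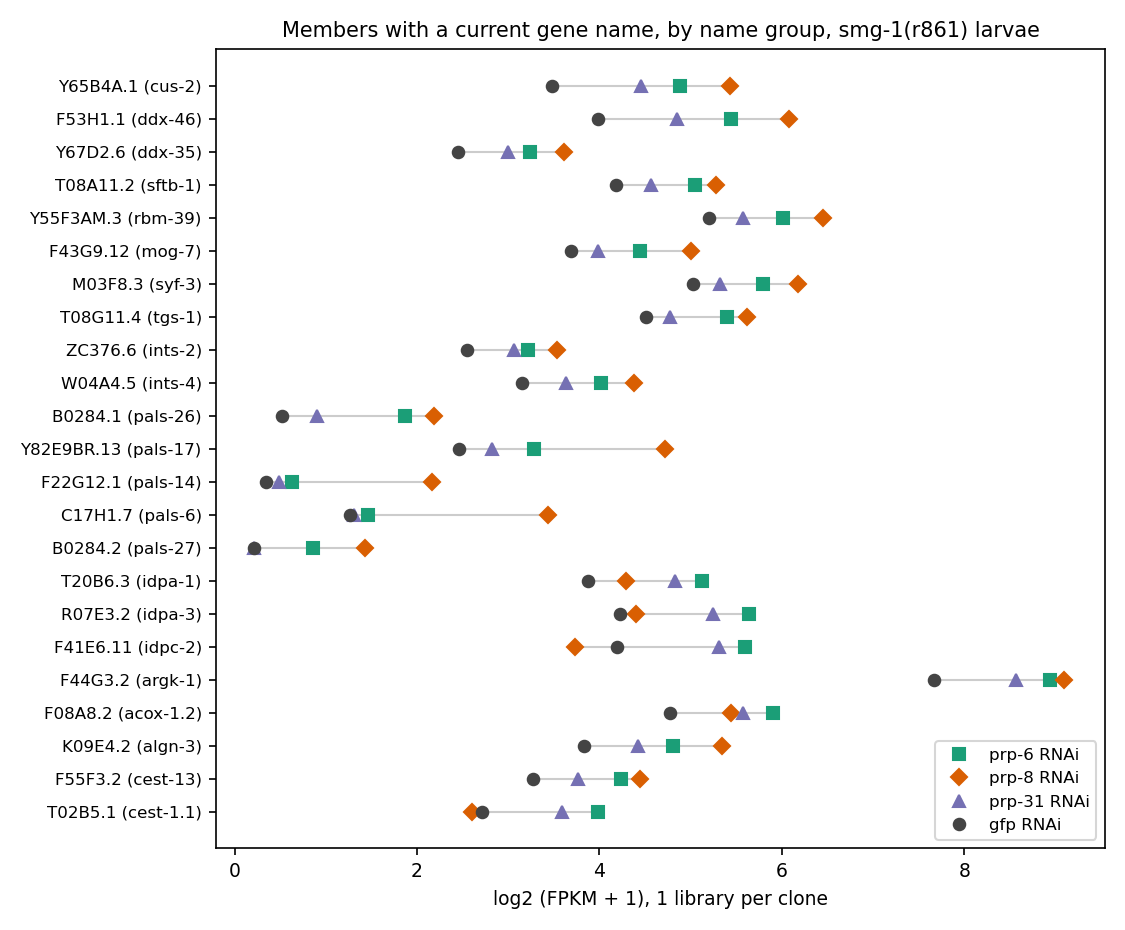
FPKM of the 23 members in the 5 name groups in the 4 smg-1(r861) libraries, as log2 (FPKM + 1), 1 library per clone. From the top the rows hold 8 splicing and snRNA cap genes, 2 Integrator genes and 5 pals genes. Below these lie 3 idp genes and 5 genes of metabolic enzymes. The prp-8 mark is rightmost for every splicing and cap, Integrator and pals gene and for none of the idp genes.

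The prp-8 library was the lowest of the 3 knockdowns for 11 of the 127 members, against 18 of the 346 genes of the whole higher table. The 3 genes of the idp families were all of this kind. F41E6.11 (idpc-2) had 47.5, 12.3 and 38.7 FPKM in the knockdowns and 17.2 FPKM with gfp, so it was above gfp with prp-6 and prp-31 and below it with prp-8. R07E3.2 (idpa-3) had 48.8, 20.1 and 36.8 FPKM and 17.7 FPKM with gfp, and T20B6.3 (idpa-1) had 33.9, 18.5 and 27.5 FPKM and 13.7 FPKM with gfp. The span of idpa-3 overlaps the cuticulin gene cut-5 on the other strand, and the labels do not say whether the libraries keep strand. W08E12.2, which has no gene name, had the lowest prp-8 fold, 0.698, with 36.5, 8.80 and 34.1 FPKM and 13 FPKM with gfp. cest-1.1 (T02B5.1), a carboxylesterase gene, had 14.8, 5.07 and 11 FPKM and 5.54 FPKM with gfp. These 3 (idpc-2, W08E12.2 and cest-1.1) were the only members below gfp with prp-8, beside 8 of the 346 genes of the whole higher table. K08D8.4, by contrast, was close in all knockdowns, at 49.7, 38.5 and 48.1 FPKM with 20.0 FPKM for gfp, and so was Y4C6B.2, at 20.4, 19.4 and 19.9 FPKM with 11.1 FPKM for gfp. At least 2-fold higher values with prp-6 and prp-31 and not with prp-8 were found in 4 members: K08D8.4, idpa-3, idpc-2 and W08E12.2. The share of the whole higher table with this pattern was not computed, and nothing is read from the count.

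At the other end, 72 of the 127 members (56.7%) were at least 2-fold higher with prp-8 alone. How common this pattern is in the whole higher table was not computed, and nothing is read from the count. K03D3.2 had 2.23, 44.2 and 3.65 FPKM in the knockdowns and 4.46 FPKM with gfp. Y41G9A.5 had 10.8, 82.7 and 19.4 FPKM and 16.5 FPKM with gfp. These were the only members below gfp with prp-6, beside 5 of the 346 genes of the whole higher table. F58E2.3 was near gfp with the other clones, with 1.19, 9.83 and 1.35 FPKM and 1.16 FPKM with gfp. ZK105.1, at least 2-fold higher with prp-6 as well, had 18.9, 90.0 and 10.6 FPKM in the knockdowns and 8.04 FPKM with gfp, folds of 2.20, 10.1 and 1.29. The files and the annotation give no role for these genes.

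**Figure D4:**
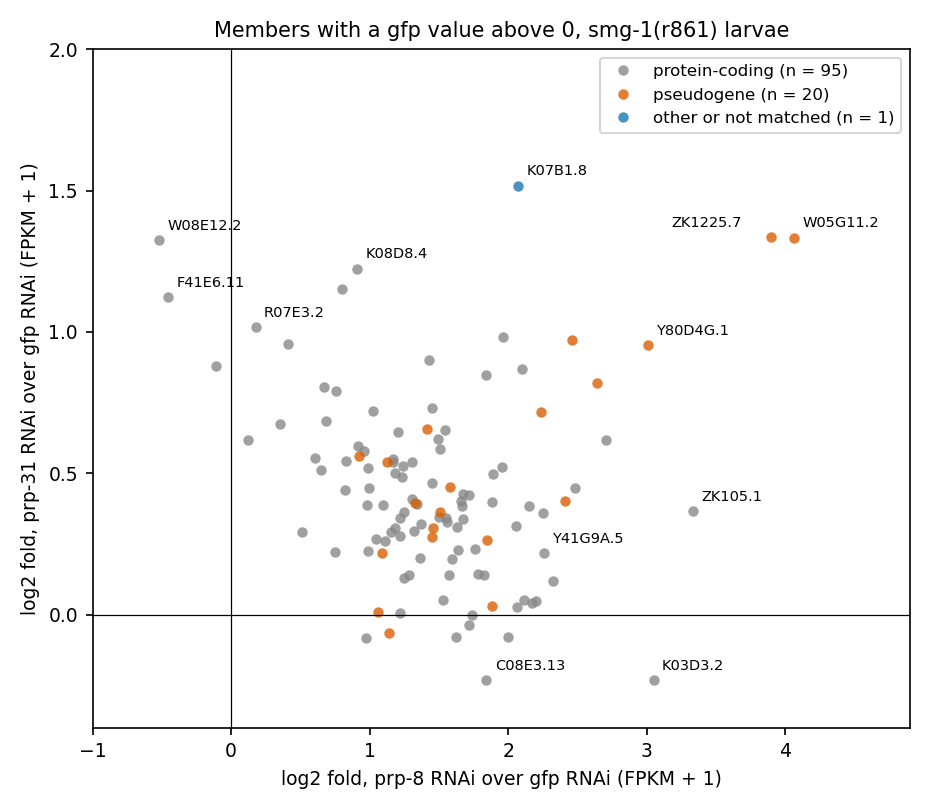
Log2 fold with prp-8 RNAi (horizontal) against log2 fold with prp-31 RNAi (vertical), both over the same gfp library and on the FPKM + 1 scale, for the 116 members with a gfp value above 0 in smg-1(r861) larvae. W08E12.2 and F41E6.11 lie at the upper left, with log2 folds of -0.52 and -0.45 with prp-8 and 1.32 and 1.12 with prp-31; K03D3.2 lies at the lower right, with 3.05 and -0.23.

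Among genes of metabolic enzymes, argk-1 (F44G3.2), an arginine kinase gene, stood next to C08E3.13 as the most abundant in the single gfp library. It had 489, 546 and 379 FPKM in the knockdowns and 202 FPKM with gfp, and folds of 2.41, 2.69 and 1.87. acox-1.2 (F08A8.2), a peroxisomal acyl-CoA oxidase gene, was highest with prp-6, at 59.0, 42.4 and 46.7 FPKM and 26.3 FPKM with gfp. algn-3 (K09E4.2), a mannosyltransferase gene of N-glycan assembly, had 27.1, 39.6 and 20.4 FPKM and 13.3 FPKM with gfp. The member with the highest single-library gfp level, C08E3.13, had 475, 815 and 193 FPKM in the knockdowns and 226 FPKM with gfp. C08E3.13 was thus below gfp with prp-31. It was among the 13 members whose single-library and pooled values disagreed. The pooled gfp values were 151 FPKM for C08E3.13, 262 FPKM for argk-1 and 184 FPKM for Y54E5A.5. C08E3.13 therefore ranked first only by the single library. Y54E5A.5 had 240, 420 and 155 FPKM in the knockdowns and 141 FPKM with gfp. FPKM is corrected for transcript length, but the levels of different members are uncertain where single-library and pooled values differ. The folds of these abundant members, 2.69 to 3.59 with prp-8 for argk-1, Y54E5A.5 and C08E3.13, were near the members' median of 2.74 or above it. Altogether 8 of the 127 members were below gfp with prp-31, against 19 of the 346 genes of the whole higher table.

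Another of those 8, Y110A7A.7, lies directly downstream of prp-31, the target of 1 of the clones, on the same strand of chromosome I, with 133 bases between the genes in the annotation. Y110A7A.7 had 83.6, 143 and 43.4 FPKM in the knockdowns and 45.9 FPKM with gfp. prp-31 itself had 95.3, 122 and 24.0 FPKM in the knockdowns and 31.4 FPKM with gfp. Both genes were above gfp with prp-6 and prp-8 and below it with prp-31, with folds of 0.947 for Y110A7A.7 and 0.770 for prp-31. Whether the prp-31 clone acts on Y110A7A.7 was not tested. The same order, prp-8 above prp-6 above gfp above prp-31, was found in 7 of the 127 members. Its share of the whole higher table was not computed. The other targets, prp-6 and prp-8, are not in the tables, so the knockdown could be seen only for prp-31. In N2, prp-31 had 133, 144 and 25.3 FPKM in the knockdowns and 40.6 FPKM with gfp, again lowest with its own clone.

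**Figure D5:**
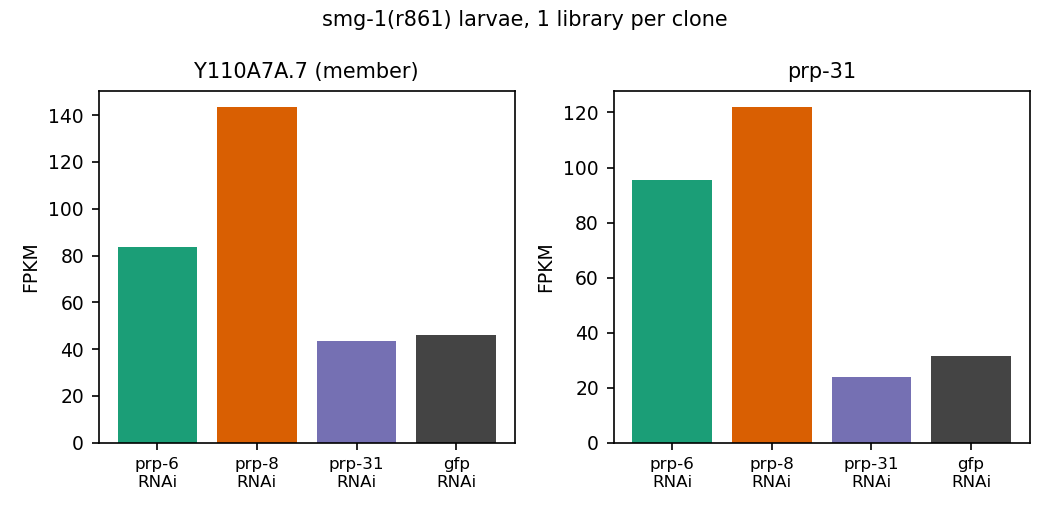
FPKM of Y110A7A.7 and of its upstream neighbour prp-31 in the 4 smg-1(r861) libraries (1 bar per library, no error bars because there are no replicates; the vertical scales differ). The prp-31 bar is the lowest for both genes, at 43.4 FPKM for Y110A7A.7 and 24.0 FPKM for prp-31.

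Of the members, 29 had another gene of the smg-1 higher table within 5000 bases in the annotation, in 23 pairs. The same share was not computed for other genes, so no clustering is read from the counts of pairs. In 7 pairs both genes were members, and 3 of these were pairs of pseudogenes on 1 strand (F59H6.3 with F59H6.2, Y46G5A.43 with Y46G5A.6, and C33D9.9 with C33D9.5). The pair on chromosome II, Y46G5A.43 and Y46G5A.6, had close values in every library: 18.0, 29.2 and 12.8 FPKM with 9.13 FPKM for gfp, and 18.6, 31 and 13.5 FPKM with 10.2 FPKM for gfp. Neighbouring pseudogenes can be copies of each other, and the counts of pseudogenes above take each one separately. pals-6 with pals-14 and pals-26 with pals-27 were also such pairs. D1086.2 and D1086.1 stand back to back with 189 bases between them, and had log2 folds of 0.42, 1.67 and 0.43, and of 0.72, 1.45 and 0.47. In 11 pairs the partner was in both larval higher tables. Y66D12A.10, for example, lies 129 bases upstream of Y66D12A.9 on the same strand, with log2 folds of 1.24, 1.95 and 0.52 for the member and 1.04, 1.02 and 0.42 for its partner. gldi-1 (W07E6.2) stands 487 bases from the splicing factor gene prp-21 on the opposite strand, with log2 folds of 0.80, 1.24 and 0.53, and of 0.82, 1.29 and 0.33 for prp-21.

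In gene structure the protein-coding members were close to the unnamed genes of both larval tables. They had a median of 5 exons (quartiles 3 and 8), a median coding length of 1056 bp and a median 3' untranslated region of 104 bp. The 67 protein-coding genes of the 73 had 5 exons, 963 bp and 104 bp. The 86 protein-coding genes of the 95 named ones had 7 exons, 1697 bp and 148 bp. More than 1 transcript is annotated for 28.7% of the members, 28.4% of the unnamed genes of both tables and 30.2% of the named genes. An annotated intron in the 3' untranslated region was found for 5 of the 101 members (4.95%), 1 of the 67 (1.49%) and 2 of the 86 (2.33%). No test was made of these shares. Of the 126 matched members, 26 overlap another protein-coding gene, pseudogene, snoRNA, rRNA or lincRNA gene on either strand, and in 51 the deposited interval spans less than 50% of the annotated gene.

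The 127 members lie on all chromosomes, with 24 on I, 20 on II, 21 on III, 21 on IV, 32 on V and 9 on X. Of the marker lists, none of 10 muscle, 10 neuron or 10 hypodermis genes was in either smg-1 table. Of 20 germline genes, syp-1 was in the lower table, at 4.15, 3.62 and 6.23 FPKM in the knockdowns and 8.52 FPKM with gfp. Of 10 intestine genes, the yolk protein gene vit-6 was in the higher table, at no more than 0.715 FPKM. Their part in the members' values was not tested.

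The members also listed in adults of glp-4 were C14C6.5 and argk-1, both in the higher table. The glp-4 tables are short, with 58 higher and 88 lower genes. The share of the whole smg-1 higher table listed in adults was not computed, and nothing is read from the overlap. C14C6.5 had 195 FPKM with prp-8 and 122 with prp-31 in adults, against 74.2 FPKM with gfp. In smg-1 larvae it had 61.3, 135 and 38.8 FPKM in the knockdowns and 29.5 FPKM with gfp, so the prp-8 library was highest at both ages. argk-1 had 298 FPKM with prp-8 and 331 with prp-31 in adults, against 196 FPKM with gfp. Its q in the authors' deposited table was 0.664 in adults, and that of C14C6.5 was 0.0495.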

How the data were processed

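The deposited values are FPKM, estimated by the authors with Cufflinks and compared with Cuffdiff, per the submitters' processing notes. Their versions, and the aligner, build and annotation, were not given in the sources used here. The authors' comparison is held, per the file headers, as pooled FPKM, log2 fold change, P-value and q-value beside the FPKM of each library. A test statistic, a score that 5 of the 6 deposited tables hold per the file headers, was not used. Only genes the authors selected are listed.

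From the single-library FPKM, log2 folds with a pseudocount of 1 FPKM were computed (Python 3.11.15, pandas 2.3.3, numpy 2.4.6, matplotlib 3.10.9) and checked on simulated data. No filter on low values was applied. Groups of 1 library allow no test; P and q are the authors'. Classes, structure and distances come from Ensembl release 115 and names from RefSeq, both WBcel235, and 126 of 127 members matched. Deposited intervals were not converted. Sequences of the members were not used here.

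The members and gene lists were chosen with earlier results of these data known. Genes were named by rule: the 12 members with the largest smallest fold, the 4 largest with each clone and in spread, the 4 with the highest gfp value, members listed at 0, in other tables, next to each other, nearest the P threshold or with a current name, and a few more were named after their values were seen. The comparison of single-library with pooled FPKM was also added then. Alternatives were a pseudocount of 0.1 FPKM, a mean of at least 1 FPKM, leaving out a knockdown library, matching by current identifiers, and, added after the data were seen, leaving out members listed at 0 or overlapping an N2 gene.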

Additional observations from a re-analysis of the deposited data

How the results depend on the processing

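No paired analysis was possible because each group had 1 library and no result comes from a test. With a pseudocount of 0.1 FPKM, the median log2 fold was 1.75 (prp-8), 1.01 (prp-6) and 0.54 (prp-31), and 65 members were at least 2-fold higher with prp-6, 27 with prp-31 and 15 in every knockdown; the smaller pseudocount by construction raises folds of low genes. Among the 112 members with a mean of at least 1 FPKM the medians with prp-8 and prp-31 were 1.5 and 0.41. At least 2-fold higher in every knockdown were 9 members without the prp-8 library and 27 without the prp-31 library. Without the members listed at 0 in a library, an alternative chosen after seeing the data, the prp-31 median was 0.40 and 3 members were at least 2-fold higher in every knockdown. Matching by current identifiers left the number of members at 127, and leaving out Y80D4G.1, which overlaps an N2 gene, gave 126. FPKM without counts gives no interval, so differences between low values cannot be judged.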
